A study of Homo sapiens with 12 samples.

Results

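The EGFR family comprises the receptor tyrosine kinases encoded by EGFR, ERBB2, ERBB3 and ERBB4, and its EGF-type ligands are encoded by EGF, TGFA, AREG, EREG, HBEGF and BTC. These 10 genes, 4 receptors and 6 ligands, were chosen by symbol from the 23064 gene symbols counted in each cell line, and each was represented by the RefSeq transcript with the most counts. They were followed in CAL-29 and 5637 cells, established human bladder carcinoma lines, upon knockdown of KMT9α, the catalytic subunit of a histone methyltransferase, which is encoded by N6AMT1. RNA was taken on day 3 after treatment with a control siRNA (siCtrl) or an siRNA against KMT9α (siKMT9α), with 3 libraries of each in each line, and all 12 libraries are labelled with a WT genotype. The deposited columns call the siRNA si270, and the results of the study name siKMT9α#1 as the one sequenced. Transfection reagent, siRNA dose and culture medium differed between the lines and cannot be told apart from the line. No source says that the 3 libraries came from separate cultures, so p-values measure the spread between libraries, which may be technical.

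EGF-type ligands are made as membrane-anchored precursors, and metalloproteases such as ADAM17 and ADAM10 cut them loose. A bound ligand lets receptors pair and phosphorylate each other, after which adaptors such as GRB2 and SHC1 couple them to RAS and other pathways. ERBB2 has no known ligand of its own, ERBB3 has very weak kinase activity, and both signal mainly as partners in receptor pairs. In the urothelium, EGFR is typical of basal cells, and it is often highly expressed in basal-type bladder cancers.

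The siRNA target is shown first, with the receptor sites that share its seed match. Its target lies in exon 3 of N6AMT1, in the coding sequence, at 30254500 to 30254524 of chromosome 21, minus strand (GRCh37, the assembly that hg19 denotes). The capitals mark the heptamer complementary to bases 2 to 8 of the guide strand, the seed, in the target and in the 3′ untranslated regions (3′ UTRs) of EGFR and ERBB4.
N6AMT1 target: acgctgtaacaaagttcACATTCAa
EGFR site 1, chr7:55276194-55276220, plus strand: ctgagagctcACATTCAtaggtgccgc
EGFR site 2, chr7:55276611-55276637, plus strand: ggttattgcaACATTCAtcaaagtttc
EGFR site 3, chr7:55279077-55279103, plus strand: cgttttagaaACATTCAagcaatagct
ERBB4 site 1, chr2:212246862-212246888, minus strand: aaaaacacaaACATTCAaagcttaggg
ERBB4 site 2, chr2:212241415-212241441, minus strand: ctactctcaaACATTCAtcttatacat
In the canonical transcripts of the GENCODE annotation, EGFR held 3 of these matches in a 3′ UTR of 6011 bases and ERBB4 held 2 in 7898 bases. The 3′ UTRs of the other 8 members, between 265 bases in AREG and 3941 bases in EREG, held none. ACATTCA was searched for on the transcript strand, and it occurs in the longest annotated 3′ UTR of 15.4% and in the shortest of 5.48% of 12395 genes tested in both lines. The transcripts that the authors counted may end elsewhere than these models, and the part of the matches in the values that follow was not tested.

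**Figure D1:**
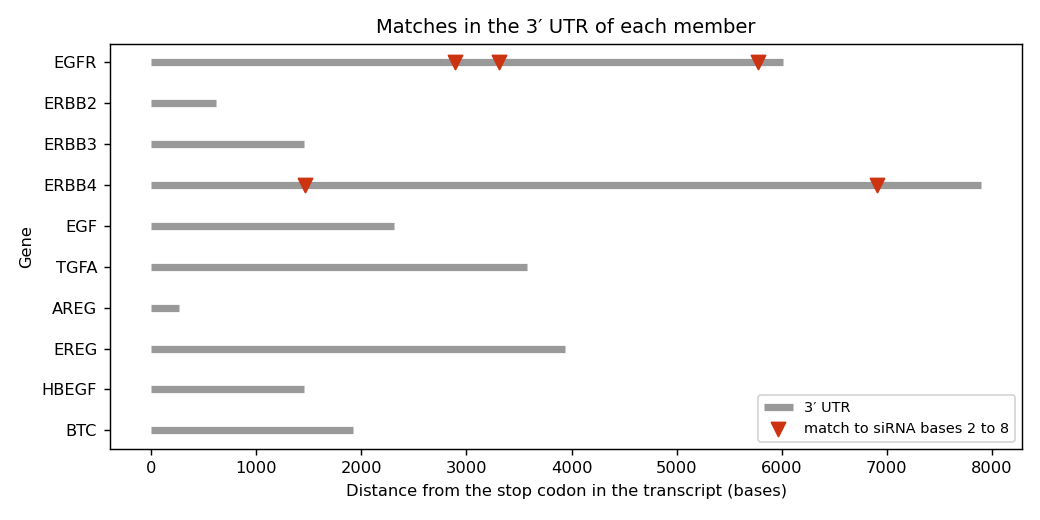
Length of the 3′ UTR of the canonical transcript of each gene (grey bars, bases from the stop codon) and matches to the complement of siRNA guide bases 2 to 8 (red triangles). Only EGFR, with 3 matches, and ERBB4, with 2, carry any among the 10 genes.

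On the transcripts kept, the libraries held between 24479348.5 and 35151256.5 counts, and replicates differed by more than sampling noise. The chi-square per degree of freedom was 8.17 and 12.3 for siCtrl replicate 1 of CAL-29 cells against the other 2 libraries of its group, and between 2.25 and 3.998 for all other pairs, so that this control library stood apart. Without it, 4 of 10 members passed the threshold of 1e-06 in CAL-29 cells in place of 3, all 10 log2 fold changes there kept their sign, and calls or signs that moved are given with the genes below. N6AMT1 had 9.68 to 11.4 TMM-scaled CPM in the siCtrl libraries and 1.99 to 2.93 CPM in the siKMT9α libraries of CAL-29 cells, and 13.2 to 13.4 CPM and 2.22 to 3.75 CPM in those of 5637 cells, so it was lower in every siKMT9α library. The 10 epithelial and urothelial markers (EPCAM, CDH1, TP63, GATA3, UPK2 and 5 keratins) summed to between 8780 and 13975 CPM in the siCtrl libraries, and all but UPK2 in 5637 cells had a mean above 1 CPM. With siKMT9α the sum was between 6396 and 6550 CPM in CAL-29 cells and between 6075 and 6289 CPM in 5637 cells, and at an adjusted p below 0.05, 8 and 9 of the 10 markers fell and 1 rose in each line, where 35.2% and 35.6% of all genes fell and 34.3% and 35.1% rose. Of the leukocyte markers, CD68 had a mean of 5.07 CPM with siCtrl and 10.97 CPM with siKMT9α in CAL-29 cells and of 2.73 and 4.32 CPM in 5637 cells. The group means of ITGAM were at most 0.942 CPM and those of PTPRC at most 0.210 CPM, and CD3E was at 0 in all libraries of 5637 cells. The 4 endothelial markers summed to 11.4–13.7 CPM and then 5.19–6.92 CPM in CAL-29 cells and to 2.57–3.19 and then 0.812–1.21 CPM in 5637 cells, with PECAM1 near 0. KDR carried the fall in CAL-29 cells, with a mean of 10.8 CPM and then 1.70 CPM, while CDH5 rose there from 0.683 to 3.81 CPM (log2FC 2.48, adjusted p = 9.10e-09 with edgeR) and fell in 5637 cells from 1.18 to 0.0328 CPM. The 3 fibroblast markers summed to at most 1.53 CPM in any library. The part of these shifts in the changes below was not tested. In bulk RNA of a cell line, a change in the share of cells that express a gene and a change in its RNA per cell cannot be told apart.

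All 4 receptor transcripts were lower with siKMT9α in CAL-29 cells, and EGFR, ERBB2 and ERBB3 were lower in 5637 cells. EGFR itself passed the threshold of the study (unadjusted p below 1e-06) in both lines. The gene spans 55086710 to 55279321 on the plus strand of chromosome 7 (GRCh37). In CAL-29 cells, EGFR had 251, 218 and 219 CPM in the siCtrl libraries and 149, 143 and 152 CPM in the siKMT9α libraries. In 5637 cells, EGFR had 261, 269 and 248 CPM with siCtrl and 209, 194 and 202 CPM with siKMT9α. The siKMT9α libraries were all lower than the siCtrl libraries in both lines, with less distance between the groups in 5637 cells. The log2 fold change (log2FC) of EGFR was -0.63 in CAL-29 cells, with a standard error (SE) of 0.05 and an adjusted p of 1.69e-09, by the edgeR quasi-likelihood test with adjustment over all genes (Benjamini-Hochberg). It was -0.36 in 5637 cells (SE 0.04, adjusted p = 4.19e-10 with edgeR). A larger absolute log2FC than that of EGFR was found for 29.8% of genes in CAL-29 cells and for 44.8% in 5637 cells. The other EGFR transcripts, 3 shorter forms whose counts overlap with those of the full-length row, had log2FC between -0.58 and -0.55 in CAL-29 cells and of -0.37 to -0.36 in 5637 cells. The antisense gene EGFR-AS1 overlaps 1.88% of the exonic bases of EGFR on the opposite strand. The methods state default settings for the counting, and the sources used here do not name the strand setting.

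ERBB2, the orphan receptor of the family, lies on the plus strand of chromosome 17 from 37844167 to 37886679. In CAL-29 cells, ERBB2 had 222, 214 and 199 CPM with siCtrl and 170, 173 and 178 CPM with siKMT9α. In 5637 cells, ERBB2 had 188, 182 and 196 CPM with siCtrl and 167, 154 and 163 CPM with siKMT9α. The groups did not overlap in either line, yet ERBB2 missed the threshold of 1e-06 in both with the quasi-likelihood test. With the DESeq2 Wald test it passed in both, with p of 1.96e-07 in CAL-29 and 4.53e-08 in 5637 cells. MIEN1, on the opposite strand, overlaps 3.58% of the exonic bases of ERBB2. The log2FC of ERBB2 was -0.29 in CAL-29 cells (SE 0.05, adjusted p = 3.12e-05 with edgeR) and -0.23 in 5637 cells (SE 0.04, adjusted p = 2.91e-06). The unadjusted p of ERBB2 was 1.14e-05 in the first line and 1.04e-06 in 5637 cells. The latter lies so close to the threshold that leaving out siCtrl replicate 2 or siKMT9α replicate 1 moved it to the other side, to 1.61e-07 and 2.38e-07. In CAL-29 cells, p was 1.82e-07 without siCtrl replicate 1.

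ERBB3, a receptor for neuregulins, had the smallest changes among the receptors that passed an adjusted p of 0.05. ERBB3 had 108, 98.0 and 95.1 CPM with siCtrl and 89.3, 86.2 and 91.3 CPM with siKMT9α in CAL-29 cells, with a log2FC of -0.17 (SE 0.05, adjusted p = 0.0062 with edgeR). In 5637 cells, ERBB3 had 74.3, 71.3 and 71.4 CPM with siCtrl and 65.8, 67.9 and 65.7 CPM with siKMT9α, with a log2FC of -0.12 (SE 0.04, adjusted p = 0.00809 with edgeR). The libraries separated without overlap in both lines, but 75.5% and 78.9% of all genes changed by more than ERBB3. The second transcript row of ERBB3, a short form, had a log2FC of 0.10 (adjusted p = 0.382 with edgeR) in CAL-29 cells and of -0.04 (adjusted p = 0.756) in 5637 cells.

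ERBB4, a neuregulin receptor with kinase activity, was close to the limit of detection. In CAL-29 cells, ERBB4 had 1.55, 2.54 and 1.59 CPM with siCtrl and 1.04, 0.640 and 1.11 CPM with siKMT9α, from between 21 and 65 counts a library. All siKMT9α libraries were below all siCtrl libraries, with a log2FC of -1.04 (SE 0.29, adjusted p = 0.00319 with edgeR), short of 1e-06. In 5637 cells, ERBB4 had 0.307, 0.321 and 0.421 CPM with siCtrl and 0.60, 0.369 and 0.263 CPM with siKMT9α, from 8 to 16 counts, and the groups overlapped. The log2FC of ERBB4 there was 0.20 with a 95% interval from -0.65 to 1.05 (adjusted p = 0.680 with edgeR), so that no change was detectable at this depth.

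**Figure D2:**
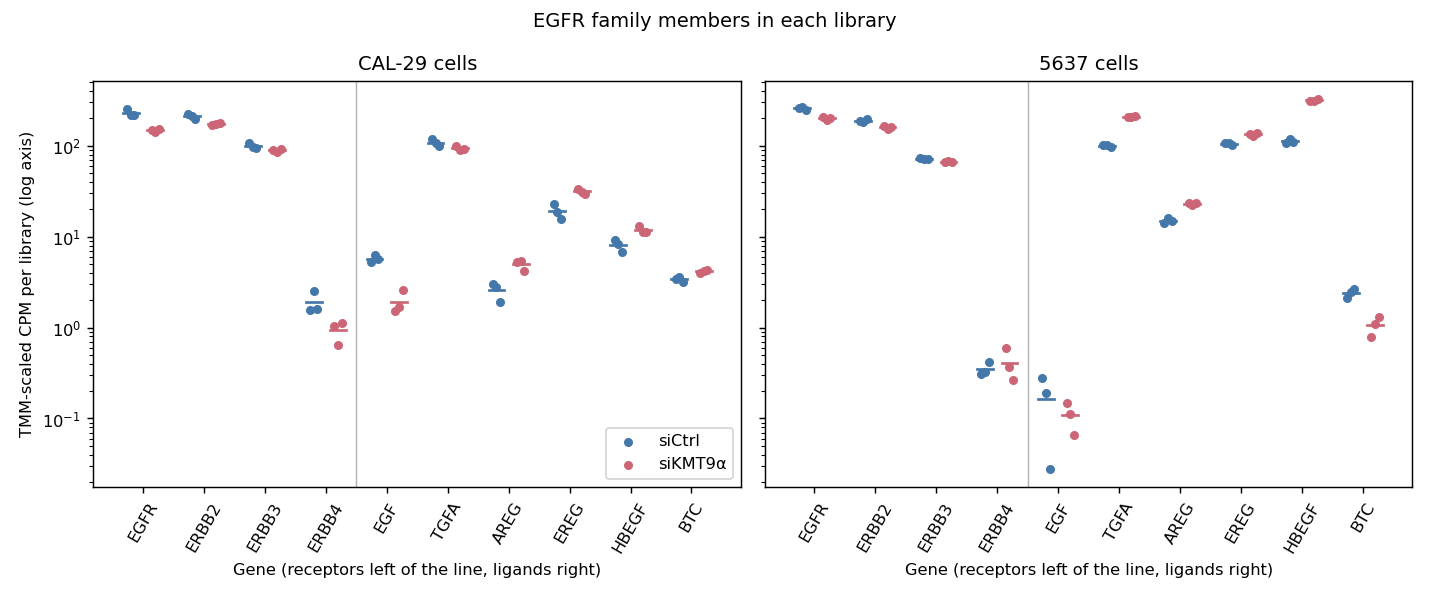
TMM-scaled CPM of each gene in each library (points, log axis) and the group mean (bars) for siCtrl (blue) and siKMT9α (red), 3 libraries a group. HBEGF in 5637 cells moves from 107–118 to 308–323 CPM, while EGFR in CAL-29 cells moves from 218–251 to 143–152 CPM, and EGF in 5637 cells and ERBB4 lie at the bottom of the scale.

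Most of the ligands that changed were higher with siKMT9α, and the lines differed in which moved most. In 5637 cells, TGFA, AREG, EREG and HBEGF rose past 1e-06, with HBEGF first. In CAL-29 cells, EREG rose and EGF fell past that threshold. HBEGF, which encodes a heparin-binding ligand of EGFR and ERBB4, lies on the minus strand of chromosome 5 from 139712428 to 139726188. In 5637 cells, HBEGF had 107, 118 and 110 CPM with siCtrl and 308, 314 and 323 CPM with siKMT9α. The mean was 2.82-fold higher after knockdown, and the lowest siKMT9α library stood far above the highest siCtrl library. The log2FC of HBEGF in 5637 cells was 1.5 (SE 0.04, adjusted p = 5.67e-24 with edgeR), and 3.95% of all genes changed by more. In CAL-29 cells, HBEGF started from 9.22, 8.36 and 6.73 CPM and had 13, 11.2 and 11.4 CPM with siKMT9α, with a log2FC of 0.56 (SE 0.12, adjusted p = 2.95e-04 with edgeR) that did not reach 1e-06.

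TGFA, which encodes the EGFR ligand transforming growth factor alpha, changed in opposite directions in the lines. It lies on the minus strand of chromosome 2 from 70674416 to 70781325. In 5637 cells, TGFA had 101, 103 and 97.5 CPM with siCtrl and 209, 205 and 214 CPM with siKMT9α, with a log2FC of 1.06 (SE 0.04, adjusted p = 6.30e-21 with edgeR). In CAL-29 cells, TGFA had 117, 108 and 99.6 CPM with siCtrl and 99.4, 89.4 and 92.7 CPM with siKMT9α. Here the groups only just separated, by 99.6 against 99.4 CPM. The log2FC of TGFA in CAL-29 cells was -0.21 (SE 0.06, adjusted p = 0.00331 with edgeR), and it did not reach 1e-06.

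AREG and EREG, neighbours on chromosome 4 that encode the EGFR ligands amphiregulin and epiregulin, were higher with siKMT9α in both lines. AREG lies on the plus strand from 75310853 to 75320722, and EREG on the plus strand from 75230862 to 75254466. In 5637 cells, AREG had 14.3, 16 and 14.8 CPM with siCtrl and 23.2, 22.6 and 23.3 CPM with siKMT9α, with a log2FC of 0.62 (SE 0.07, adjusted p = 2.05e-09 with edgeR). In CAL-29 cells, AREG had 3.02, 2.77 and 1.93 CPM with siCtrl and 5.26, 5.43 and 4.22 CPM with siKMT9α, with a log2FC of 0.96 (SE 0.18, adjusted p = 8.24e-05 with edgeR), short of 1e-06. GRCh37 holds a near-identical copy of AREG, named AREGB, and 91.2% of the 100-base windows of the AREG transcript also occur in it. No transcript in the tables is named AREGB, so how reads shared by both copies were treated is uncertain and so is the level of AREG.

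EREG had 106, 106 and 103 CPM with siCtrl and 134, 129 and 139 CPM with siKMT9α in 5637 cells, with a log2FC of 0.35 (SE 0.04, adjusted p = 1.00e-09 with edgeR). In CAL-29 cells, EREG had 23.0, 18.8 and 15.8 CPM with siCtrl and 33.9, 31.3 and 29.2 CPM with siKMT9α. The groups did not overlap, although the siCtrl libraries spread widely. The log2FC of EREG in CAL-29 cells was 0.72 (SE 0.10, adjusted p = 1.68e-06 with edgeR). The EREG unadjusted p in CAL-29 cells was 4.72e-07, just past the threshold. It was 1.42e-05 without siCtrl replicate 2, and 9.82e-06, 3.64e-06 and 4.03e-06 without siKMT9α replicate 1, 2 or 3, while adjusted p remained at most 4.74e-05.

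EGF, the founding ligand of the family, was measured in CAL-29 cells. EGF lies on the plus strand of chromosome 4 from 110834039 to 110934922. In CAL-29 cells, EGF had 5.30, 6.21 and 5.67 CPM with siCtrl and 1.53, 1.68 and 2.59 CPM with siKMT9α. The highest siKMT9α library was below every siCtrl library, and the log2FC of EGF was -1.59 (SE 0.19, adjusted p = 1.87e-07 with edgeR), with 5.23% of all genes changing by more. The unadjusted p of EGF was 4.13e-08, and without siCtrl replicate 2 or siKMT9α replicate 2 it was 2.00e-06 and 1.02e-06. In 5637 cells, EGF had 1 to 9 counts a library and was removed by the filter on low counts, so it was not tested there. BTC encodes betacellulin, a ligand of EGFR and ERBB4, and lies on the minus strand of chromosome 4 from 75669969 to 75719733. In 5637 cells, BTC had 2.12, 2.44 and 2.64 CPM with siCtrl and 0.787, 1.11 and 1.31 CPM with siKMT9α, with a log2FC of -1.15 (SE 0.21, adjusted p = 2.19e-05 with edgeR) that did not reach 1e-06. In CAL-29 cells, BTC had 3.47, 3.60 and 3.14 CPM with siCtrl and 4.02, 4.18 and 4.30 CPM with siKMT9α, with a log2FC of 0.29 with a 95% interval from -0.03 to 0.61 (adjusted p = 0.0961 with edgeR). The BTC libraries did not overlap in either line, but in CAL-29 cells the difference did not pass the test.

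Of the 10 genes in CAL-29 cells, 3 passed 1e-06, of which 1 rose (EREG) and 2 fell (EGFR and EGF). Of the 14673 genes tested, 30.0% passed, 15.0% up and 15.0% down. Of the 9 genes tested in 5637 cells, 5 passed, with 4 up and 1 down, against 35.6% of 14335 genes (18.0% up and 17.6% down). At an adjusted p below 0.05, 9 of 10 in CAL-29 cells and 8 of 9 in 5637 cells were called, where 69.5% and 70.7% of all genes were. The siCtrl and siKMT9α libraries did not overlap for 10 of 10 genes in CAL-29 cells, beside 72.3% of all genes, and for 8 of the 9 tested in 5637 cells, beside 72.4%. The 4 receptors had a median log2FC of -0.46 in CAL-29 and -0.17 in 5637 cells, and the ligands one of 0.42 (6 tested) and 0.62 (5 tested), beside -0.02 and -0.01 over all genes. With 3 libraries against 3, an exact permutation test of 1 gene cannot go below 0.1. EGFR was the only member down past 1e-06 in both lines, as were 8.49% of 13674 genes tested in both, and EREG the only one up in both, as were 8.45%. In a single fit of all 12 libraries, the unadjusted p of EREG in 5637 cells was 3.25e-06, which misses the threshold, with an adjusted p of 1.05e-05 (edgeR). AREG and HBEGF passed it in CAL-29 cells in that fit, with unadjusted p of 2.13e-07 and 7.33e-07 (edgeR). Which members rise past 1e-06 in both lines thus depends on the fit. At an adjusted p below 0.05, 6 members moved the same way in both lines (EGFR, ERBB2 and ERBB3 down, AREG, EREG and HBEGF up), against 44.2% of all genes, and only TGFA moved in opposite directions, against 9.89%. These sets depend on the scaling. With total counts in place of TMM, TGFA (adjusted p = 0.0553 with edgeR) and ERBB3 (0.121) were not called in CAL-29 cells. BTC was then called up there (log2FC 0.37, adjusted p = 0.0362 with edgeR) and down in 5637 cells (-1.21, adjusted p = 1.45e-05).

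**Figure D3:**
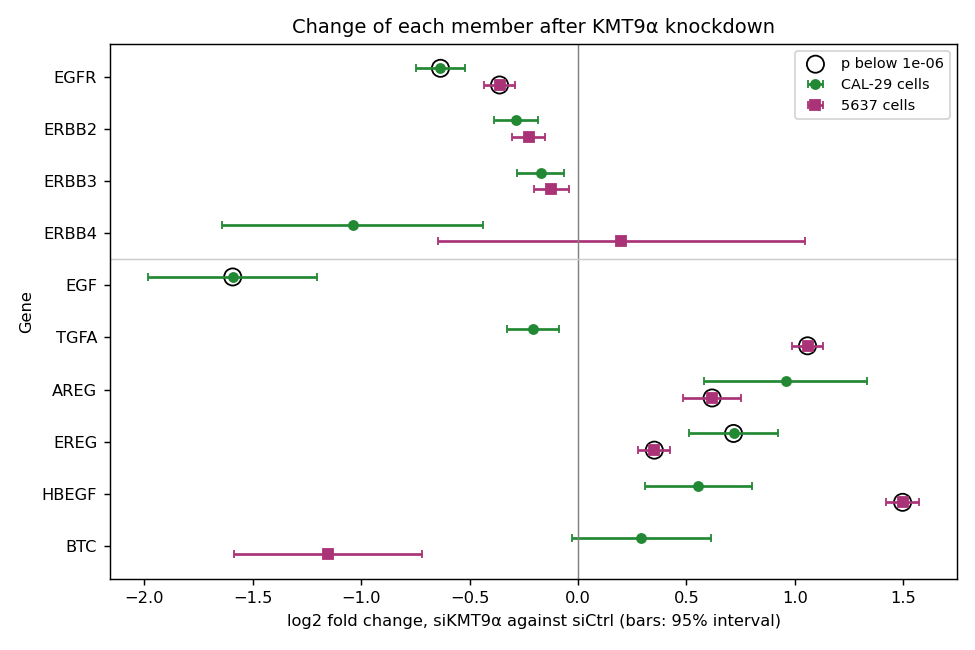
Log2 fold change with siKMT9α against siCtrl for each gene in CAL-29 (circles) and 5637 cells (squares), with 95% intervals from edgeR. Black rings mark p below 1e-06. EGFR lies left of 0 in both lines (-0.63 and -0.36), TGFA on opposite sides (-0.21 and 1.06), and EGF in 5637 cells was not tested.

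An interaction term in a fit of all 12 libraries asked whether a gene changed unequally in the lines, and differences are given as CAL-29 minus 5637 on the log2 scale. The term was called at an adjusted p below 0.05 for 5 of 10 members, and for 50.4% of the 15395 genes tested. TGFA differed by -1.25 (SE 0.07, adjusted p = 7.85e-15 with edgeR) and HBEGF by -0.92 (SE 0.11, adjusted p = 2.07e-08). Both stood higher after knockdown in 5637 cells, relative to their controls, than in CAL-29 cells. BTC differed by 1.46 (SE 0.26, adjusted p = 2.57e-05 with edgeR) and EREG by 0.38 (SE 0.10, adjusted p = 0.00217), in favour of CAL-29 cells. EGFR fell further in CAL-29 cells, by -0.26 (SE 0.07, adjusted p = 0.00246 with edgeR). This last call depends on the scaling and on the transcript. With total counts in place of TMM, the EGFR difference was -0.14 (adjusted p = 0.0890), where the median difference of all genes moved from 0.04 to 0.16. In a fit of every transcript, the full-length EGFR row had -0.27 (adjusted p = 0.00134 with edgeR). The shorter forms had -0.22, -0.21 and -0.18 there (adjusted p = 0.0460, 0.0502 and 0.0993 with edgeR). For ERBB2 and ERBB3 the difference in change was -0.04 (95% interval from -0.17 to 0.09) and -0.03 (from -0.17 to 0.10), and neither was called, and both signs turned under total counts. AREG (0.36, adjusted p = 0.0776 with edgeR), ERBB4 (-1.23, adjusted p = 0.0520) and EGF (-1.0, adjusted p = 0.309) were not called either. Without CAL-29 siCtrl replicate 1, AREG (0.49, adjusted p = 0.0237 with edgeR) and ERBB4 (-1.35, adjusted p = 0.0357) were called, and the difference of ERBB3, not called, was 0.02.

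With the control siRNA, the lines differed most in the ligands EGF, HBEGF, AREG and EREG, followed by the receptor ERBB4. In the siCtrl libraries, CAL-29 cells had less HBEGF (7.89 against 114 CPM, a log2 difference of -3.86), less AREG (2.50 against 15.3 CPM, -2.62) and less EREG (18.7 against 107 CPM, -2.53) than 5637 cells. They had more EGF (5.58 against 0.169 CPM, 5.05), which had 1 to 9 counts a library in 5637 cells, and more ERBB4 (1.84 against 0.357 CPM, 2.35). The adjusted p of these 5 differences was at most 1.95e-07 with edgeR. ERBB3 was higher in CAL-29 cells by 0.40 (adjusted p = 4.08e-09 with edgeR) from 97.5 against 73.8 CPM. EGFR had 224 against 265 CPM, a log2 difference of -0.24 (adjusted p = 3.24e-05 with edgeR), so EGFR and ERBB3 stood closer between the lines than HBEGF, AREG or EREG. TGFA did not differ beyond the spread (106 against 103 CPM, a log2 difference of 0.04 with a 95% interval from -0.06 to 0.14), and its difference was -0.02 without CAL-29 siCtrl replicate 1. ERBB2 (0.10, adjusted p = 0.0427 with edgeR) and BTC (0.43, adjusted p = 0.0196) were called, but ERBB2 passed in only 2 of 12 fits with a library left out, and BTC in 10 of 12, the exceptions being those without CAL-29 siCtrl replicate 2 (adjusted p = 0.0635) and 5637 siCtrl replicate 1 (adjusted p = 0.0880). In all, 9 of 10 members were called, against 85.4% of all genes.

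To compare levels between genes, CPM scaled over all 12 libraries were divided by the length of the canonical transcript in kb. Summed over the 6 ligand genes, 5637 cells had 110 ± 3.74 CPM per kb (SD, n = 3) with siCtrl and 238 ± 5.39 CPM per kb with siKMT9α. In CAL-29 cells, the ligand sum was 37.2 ± 3.77 CPM per kb with siCtrl and 40.0 ± 2.10 CPM per kb with siKMT9α, and these libraries overlapped. The receptor sum went from 85.3 ± 5.08 to 67.9 ± 1.55 CPM per kb in CAL-29 cells and from 82.1 ± 0.760 to 69.0 ± 2.09 CPM per kb in 5637 cells. The receptor sums of the lines overlapped within each treatment, while the ligand sums did not. Per kb of coding sequence, the receptor sums overlapped with siCtrl but not with siKMT9α (108 ± 2.55 in CAL-29 and 117 ± 3.73 CPM per coding kb in 5637 cells).

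**Figure D4:**
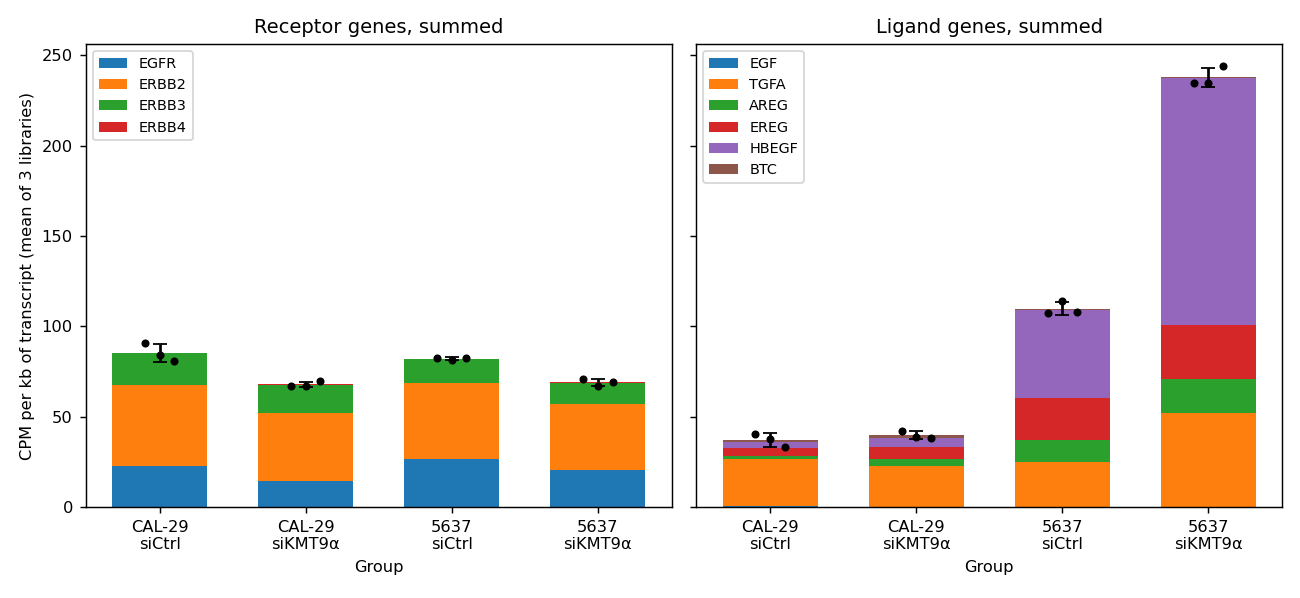
Stacked mean CPM per kb of transcript of the receptor genes (left) and ligand genes (right) in each group, with the libraries' sums as points and their SD as error bars (n = 3). The ligand sum of 5637 cells goes from 110 to 238 CPM per kb, with HBEGF as its largest part (44% and 57.4%), while in CAL-29 cells it is 37.2 and 40.0 CPM per kb, with TGFA as its largest part (69.1% and 56.2%).

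Among the ligands of 5637 cells, HBEGF stood first with 48.3 ± 2.44 CPM per kb, followed by TGFA (24.9 ± 0.726), EREG (23.3 ± 0.398), AREG (12.4 ± 0.703), BTC (0.922 ± 0.0996) and EGF (0.0265 ± 0.0202) in the siCtrl libraries. The share of HBEGF in the ligand sum went from 44% to 57.4%, and that of TGFA from 22.7% to 21.9%. These shares depend on the length used. Per kb of coding sequence, HBEGF went from 28.9% to 40.8% and TGFA from 33.8% to 35.2%, so that TGFA was the larger with siCtrl and HBEGF with siKMT9α. In CAL-29 cells, TGFA led with 25.6 ± 2.04 CPM per kb and made up 69.1% of the ligand sum with siCtrl and 56.2% with siKMT9α (78.5% and 67.1% per kb of coding sequence). EREG (4.05 ± 0.755) and HBEGF (3.34 ± 0.517) followed there with libraries that overlapped, then AREG (2.03 ± 0.449), BTC (1.25 ± 0.0865) and EGF (0.873 ± 0.0716). No other neighbours in these orders per kb of transcript overlapped. Per kb of coding sequence, BTC stood above AREG in control CAL-29 cells (6.16 against 3.30 CPM per coding kb), so the order of AREG and BTC turns with the length used. By the same measure, HBEGF in control 5637 cells came behind TGFA and EREG (182 against 213 and 210 CPM per coding kb), while the TGFA and EREG libraries overlapped. Among the receptors, ERBB2 stood above EGFR per kb of transcript in every group (45.2 against 22.6 CPM per kb in control CAL-29 cells). Per kb of coding sequence, ERBB2 was below EGFR in control CAL-29 cells (54.6 against 61.5 CPM per coding kb) and in both groups of 5637 cells, so their order is not given there. In CAL-29 cells with siKMT9α, ERBB2 was above EGFR by either length (37.5 against 14.7 CPM per kb of transcript and 45.4 against 40.1 CPM per coding kb). ERBB3 was lower than ERBB2 in every group, and ERBB4 was at most 0.152 CPM per kb in the mean of any group.

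Proteins around the receptors were followed in 5 lists with 49 genes: other ligands, ligand shedding, negative regulators, adaptors, and endocytosis and sorting. Of the 47 genes tested in each line, 9 rose and 8 fell past 1e-06 in CAL-29 cells, and in 5637 cells 16 rose and 6 fell, where 15.0% and 18.0% of all genes rose and 15.0% and 17.6% fell. At an adjusted p below 0.05, 24 were up and 12 down in CAL-29 cells, and 27 up and 9 down in 5637 cells, where 34.3% and 35.1% of all genes rose and 35.2% and 35.6% fell. Of the 5 other ligands, NRG2 and NRG3 were too low to test. EPGN, which encodes the EGFR ligand epigen, had log2FC values of 2.02 and 1.12 in CAL-29 and 5637 cells (adjusted p = 1.31e-05 and 0.00318 with edgeR), from means of 0.470 and 0.400 CPM with siCtrl. NRG1, a neuregulin that binds ERBB3 and ERBB4, had 0.32 and 0.73 (adjusted p = 0.0365 and 1.48e-10 with edgeR), and NRG4, a ligand of ERBB4, had 1.55 in CAL-29 cells (adjusted p = 2.02e-09 with edgeR) and -0.73 in 5637 cells (adjusted p = 0.120).

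Of the 8 shedding genes, 4 were up and 3 down in CAL-29 cells, and 4 up and 2 down in 5637 cells at an adjusted p below 0.05, with medians of 0.11 and 0.11. At that threshold, 34.3% and 35.1% of all genes rose and 35.2% and 35.6% fell. ADAM17, the main sheddase of TGFA, AREG, EREG and HBEGF precursors, rose past 1e-06 in both lines, from 114 to 171 CPM in CAL-29 cells and from 83.6 to 166 CPM in 5637 cells (log2FC 0.59 and 0.99). TIMP3, an inhibitor of ADAM17, fell from 380 to 173 CPM and from 283 to 145 CPM (log2FC -1.14 and -0.96). ADAM9, another metalloprotease, fell by 0.49 and 0.28 on the log2 scale.

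Of the 12 negative regulators, 6 were up and 3 down in CAL-29 cells, and 7 up and 2 down in 5637 cells at an adjusted p below 0.05, with medians of 0.13 and 0.16. The counts of adaptors and endocytosis genes below use the same threshold, at which 34.3% and 35.1% of all genes rose and 35.2% and 35.6% fell. LRIG3, a member of the LRIG family of receptor regulators, rose by 0.73 and 0.88 on the log2 scale, and CBL, the ubiquitin ligase that marks EGFR for degradation, fell by 0.50 and 0.45 on the log2 scale. Both passed 1e-06 in both lines. Of the 14 adaptors, 9 were up and 3 down in CAL-29 cells, and 10 up and 3 down in 5637 cells, with medians of 0.24 and 0.27. SHC1 rose from 54.3 to 108 CPM and from 48.4 to 108 CPM (log2FC 0.99 and 1.15), and GRB2 rose by 0.49 in each line. Of the 10 endocytosis genes, 2 were up and 3 down in CAL-29 cells, and 4 up and 2 down in 5637 cells, with medians of -0.02 and 0.04. STAM2, which sorts ubiquitinated receptors on endosomes, fell by 0.38 and 0.41 on the log2 scale.

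**Figure D5:**
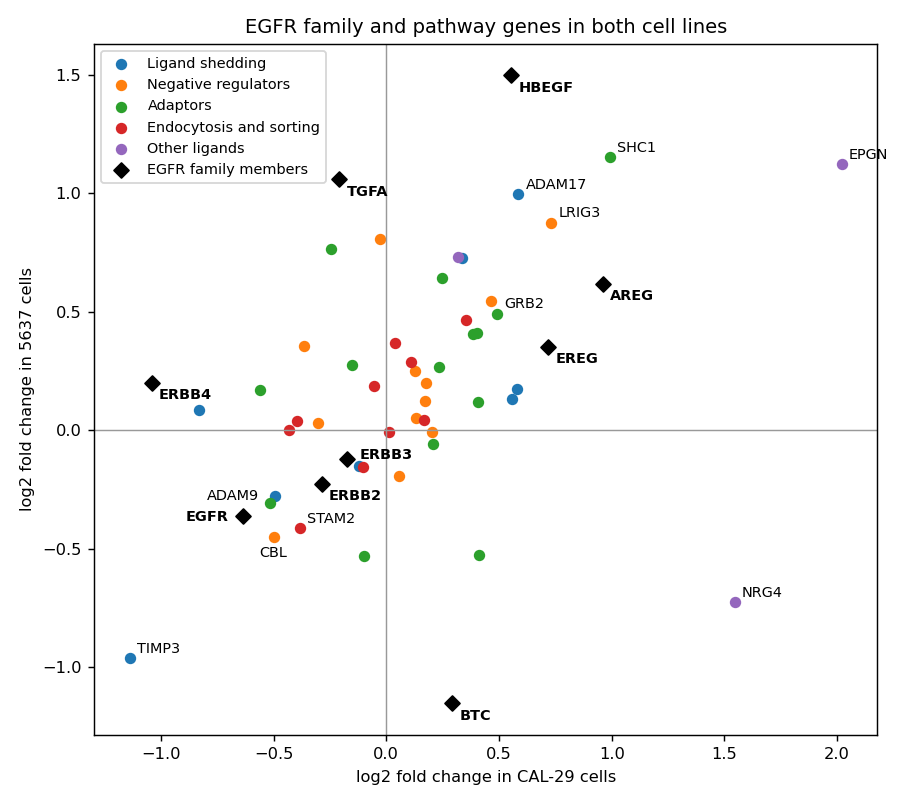
Log2 fold change with siKMT9α in CAL-29 cells (x axis) against 5637 cells (y axis) for the EGFR family (black diamonds) and 5 lists of pathway genes (coloured points), for genes tested in both lines. SHC1 (0.99 and 1.15) and ADAM17 (0.59 and 0.99) lie with HBEGF, AREG and EREG at the upper right, and TIMP3 (-1.14 and -0.96) at the lower left.

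The genes whose levels followed EGFR most closely were found by the root mean square distance of log2 CPM, each gene centred on its mean over the 12 libraries. Among 13674 genes, CBL was nearest (0.0751), followed by ACOT9, which encodes a mitochondrial thioesterase (0.0793), and TBKBP1, which encodes a binding partner of the kinase TBK1 (0.0801), where the median of all genes was 0.542. Like EGFR, these were highest in control 5637 cells and lowest in CAL-29 cells with siKMT9α, as follows from how they were chosen. The centred log2 CPM of EGFR had means of 0.37 in 5637 siCtrl, 0.12 in CAL-29 siCtrl, 0.01 in 5637 siKMT9α and -0.49 in CAL-29 siKMT9α libraries. CBL had 0.39, 0.07, -0.06 and -0.41 in the same order. The longest annotated 3′ UTRs of CBL, ACOT9 and TBKBP1 held 0 matches to the siRNA heptamer, which 15.4% of all genes hold there. The part of the matches in these levels was not tested.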

How the data were processed

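RNAseq of 12 libraries was analysed. Per the methods, the authors used STAR for alignment to hg19, Homer with default settings for counting on RefSeq transcripts, and edgeR. They deposited estimated counts without normalization, in steps of 0.5, for 37400 transcripts in each line. Fold change, p-value and adjusted p-value columns of the authors were not used. Libraries were assigned from the sample titles, whose replicate numbers differ from the descriptions for some siKMT9α libraries.

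Each symbol kept its transcript of most counts, rounded to whole numbers. In edgeR 4.0.16 (R 4.3.3), libraries were scaled with TMM, low genes were removed with filterByExpr and the quasi-likelihood F test was fitted per line, with siRNA as the only term, and over all 12 libraries for the interaction and the siCtrl levels. P-values were adjusted over all genes (Benjamini-Hochberg). The standard error was the absolute log2 fold change divided by the square root of F. The fits were tested on simulated data. Lengths, positions and sites came from GENCODE on GRCh37 (Python 3.11.15). Named were all members, N6AMT1, from each list the 2 genes per direction with the largest smaller change among those past 1e-06 the same way in both lines, and the 3 genes nearest EGFR. EPGN, NRG1 and NRG4 were named after their values were seen. The members and lists were chosen with earlier results of these data known. Alternatives were other filters, scalings, tests (DESeq2 1.42.0), rows, thresholds, the replicate number as a term and each library left out. The result of 1 leukocyte marker is not reported here.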

Additional observations from a re-analysis of the deposited data

Results flagged for a closer look

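For 5 genes the change with siKMT9α differed between the cell lines by the interaction term over 12 libraries. The log2 differences in change, CAL-29 minus 5637, were -1.25 for TGFA, -0.92 for HBEGF, -0.26 for EGFR, 0.38 for EREG and 1.46 for BTC, and the adjusted p (edgeR) of each was below 0.05. Against a 1.5-fold difference (glmTreat), 3 of them were called (TGFA, HBEGF and BTC), and EGFR and EREG were not. The EGFR call also depended on the scaling and on the transcript used. The siRNA dose, reagent and culture medium differed with the line, and the part of these in the differences cannot be told apart from the line.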

How the results depend on the processing

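Of the members, 3 passed 1e-06 in CAL-29 cells, and this count was 6 without a filter on low counts, 5 with edgeR's likelihood ratio test, 6 with the replicate block, 5 in the joint fit, 9 at an adjusted p below 0.05 and 1 when a log2 fold change of at least 1 was also required. It ranged from 1 to 4 with a library left out, and was 1 without siCtrl replicate 2 or siKMT9α replicate 2. In 5637 cells the count of 5 was 7 without the filter, 7 with the likelihood ratio test, 4 in the joint fit (where EREG was lost), 8 at an adjusted p below 0.05 and 2 with the fold added, ranged from 5 to 6 with a library left out, and was 6 with the replicate block. Replicate numbers were shared by the groups, and deviations of same-numbered libraries correlated by -0.01 to 0.08. Not every sample correlated best with its own number. These values cannot settle whether the samples were paired, as titles and descriptions number some siKMT9α libraries differently. The 5 interactions became 3 and the 9 control differences 5 against a 1.5-fold difference (glmTreat), and ranged from 5 to 7 and from 7 to 9 with a library left out. Rounding changed none of the 4 counts, an alternative added after the data were seen. The sign turned for differences that had not passed a test or were small: ERBB3 in CAL-29 cells (0.10) and its interaction (0.14) for the transcript with the fewest counts, the interactions of ERBB2 (0.075) and ERBB3 (0.084) with total counts, ERBB3's interaction (0.020, within -0.066 to 0.020 over the libraries left out) and TGFA's control difference (-0.022, within -0.022 to 0.091) without CAL-29 siCtrl replicate 1, and ERBB4 in 5637 cells (-0.16, within -0.16 to 0.46) without siKMT9α replicate 1. The cause was not tested. Of the other single-gene values, 720 kept direction and call, 44 gained and 35 lost the call without turning. EREG in CAL-29 cells also missed 1e-06 with upper quartile scaling. EGF in 5637 cells had a log2 fold change of -0.57 (adjusted p = 0.554 with edgeR) without the filter. Depth limits ERBB4, and EGF and BTC in 5637 cells.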
